A study of Mus musculus with 6 samples.

Results

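Acyl-CoA thioesterase genes (Acot) were examined in epididymal white adipose tissue, the fat depot beside the epididymis of male mice. All 6 libraries came from wild-type (WT) C57BL/6J males aged 16 weeks. The fed group has 3 libraries from mice with free access to food, and the fasted group has 3 from mice starved for 24 h. The series describes 3 biological replicates per group, and the labels do not say whether a sample held tissue of more than 1 animal. The members are the rows whose symbol begins with Acot and a digit, which gave 6 genes of the 3162 identifiers in each file: Acot1, Acot2, Acot3, Acot4, Acot9 and Acot13. The mouse annotation (GENCODE M21, GRCm38) lists 13 such genes, and the other 7 (Acot5, Acot6, Acot7, Acot8, Acot10, Acot11 and Acot12) were not analysed here.

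An acyl-CoA thioesterase splits a fatty acyl-CoA, the activated form in which cells use a fatty acid, into the free fatty acid and coenzyme A. Acyl-CoA synthetases run the opposite step, so the pair of enzyme classes sets how much activated fatty acid and free coenzyme A each compartment holds. Type I and type II thioesterases share this reaction but not their fold, and members sit in the cytosol, in mitochondria or in peroxisomes. In liver and heart several type I genes are known targets of PPAR-alpha, the fatty acid-sensing nuclear receptor that is active in fasting. The compartments named here come from general knowledge of the proteins, not from these data.

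The values are FPKM, sequenced fragments scaled to transcript length and to the mapped fragments of the library, so levels of different genes can be set side by side. The rows in the files were not a random sample of genes. Fed and fasted values did not overlap for 2953 of the 3162 genes, which is 93.4%. The edge of the choice lay near 0.45 for rises and near -0.21 for falls, as log2 ratios of the group means (the outermost percentile on each side). The genes were picked by name from rows that, judged by these values, had been selected on the fed and fasted FPKM of the same 6 libraries, by a rule the labels do not state. Thus the fed-to-fasted differences below are descriptions and no test of the members is drawn from them. The members nearest the edge of that choice were those with the smaller changes, since the log2 ratio of the group means was 0.62 for Acot13, 0.65 for Acot2 and -0.44 for Acot9.

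Of the 6 thioesterase genes, 5 rose and 1 fell in fasted tissue. Acot3, Acot4 and Acot1 changed most, by 1.86 to 2.22 on the log2(FPKM + 1) scale, Acot2 and Acot13 rose by 0.59 and 0.60, and Acot9 fell by 0.43. A call was a limma adjusted p under 0.05 across all tested genes. The same rule called 90.5% of the 2999 genes tested, 41.1% as higher and 49.4% as lower. Fed and fasted values did not overlap for any of the 6 genes, against 93.4% of all genes held, 41.9% with the fasted values higher and 51.5% with them lower. The median log2 fold change was 1.23 over the 6 members and -0.34 over all tested genes. No member lies near 1.23, which falls between Acot13 (0.60) and Acot4 (1.86). Both medians come from rows that appear to be chosen on the same contrast, so they are given only as a description. The calls of Acot1, Acot2, Acot13 and Acot9 were lost when genes of the annotation that were not tested entered the adjustment with the largest possible p.

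**Figure D1:**
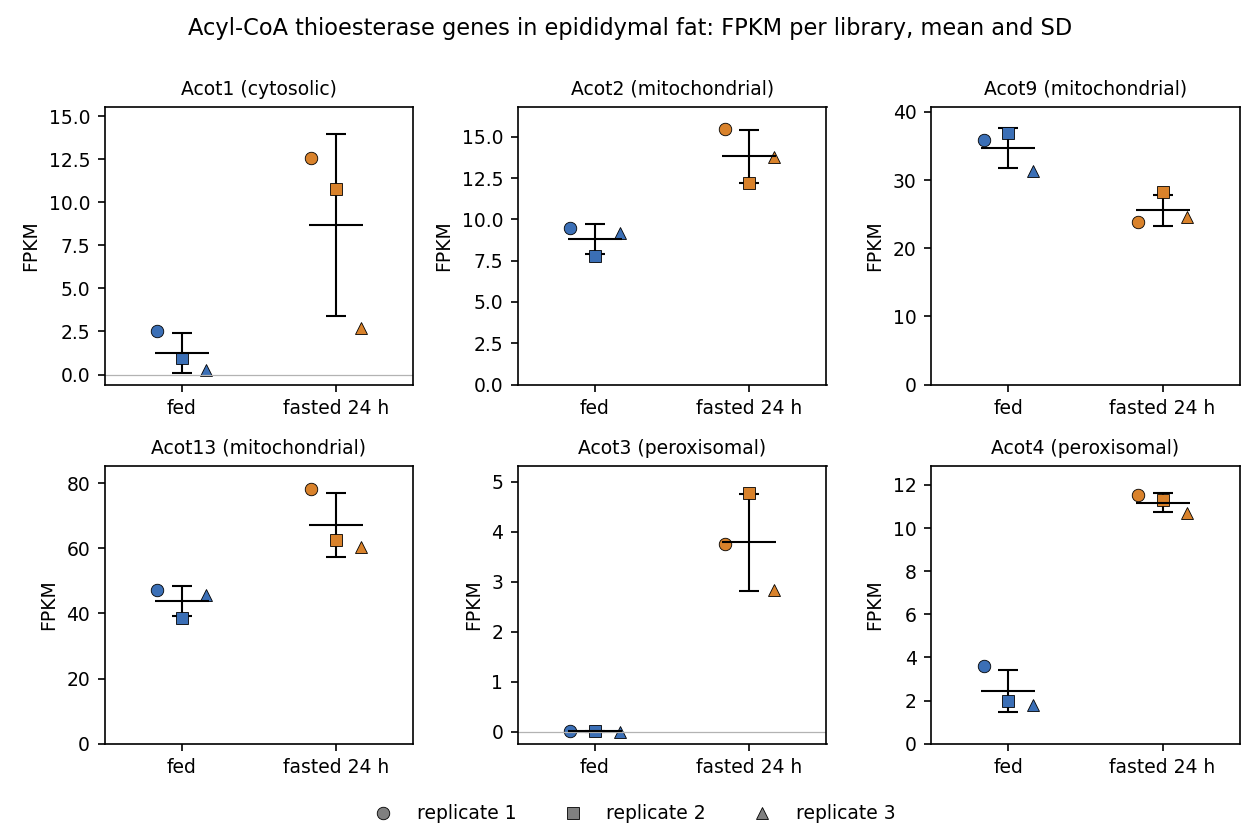
FPKM (vertical axis, linear, from 0) of each thioesterase gene in the 3 fed libraries (blue) and the 3 fasted libraries (orange), with horizontal bars for the group mean and error bars for the SD. Acot1 has 1 low fasted library (2.69 FPKM), Acot3 lies at or near 0 in every fed library, and Acot9 is the gene with lower values in fasted tissue.

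Peroxisomes oxidise fatty acids that mitochondria handle poorly, and Acot3 and Acot4 encode thioesterases of this compartment. Acot3, which acts on long-chain acyl-CoA, was listed at 0.02, 0.02 and 0 FPKM in fed tissue and at 3.75, 4.77 and 2.84 FPKM after fasting. All 3 fed values were at or beside the smallest amount the files can show, since the lowest non-zero value in a library was 0.01 or 0.02 FPKM. A ratio is therefore not given. On the log2(FPKM + 1) scale the difference was 2.22 ± 0.19 (SE, n = 3 per group), a size that depends on the pseudocount and became 5.07 with a pseudocount of 0.1. Acot3 passed the filter of a mean of at least 1 FPKM only through its fasted values.

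Acot4, whose product splits succinyl-CoA and the dicarboxylic acyl-CoA left by peroxisomal chain shortening, was already present in fed tissue. Its values were 3.58, 1.97 and 1.79 FPKM in fed and 11.55, 11.3 and 10.68 FPKM in fasted libraries. The fasted libraries were nearly level (11.2 ± 0.448, SD), whereas the fed ones spread over a range that was led by fed replicate 1 (2.45 ± 0.986). The ratio of the means was 4.57 and the log2 fold change 1.86 ± 0.20. The lowest fasted value stood 7.1 FPKM above the highest fed value.

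Acot1, the cytosolic long-chain thioesterase, was the most variable member. It had 2.54, 0.96 and 0.29 FPKM in fed tissue and 12.59, 10.78 and 2.69 FPKM in fasted tissue. Fasted replicate 3 thus lay only 0.15 FPKM above fed replicate 1, and the other 2 fasted libraries lay far above both. The coefficient of variation was 91.4% in fed and 60.7% in fasted tissue, against 4.01% for Acot4 in the same fasted libraries. The group means were 1.26 ± 1.16 and 8.69 ± 5.27 FPKM, with a log2 fold change of 2.01 ± 0.54. Without fed replicate 1 the fed mean was 0.625 FPKM, and the log2 fold change ranged from 1.67 to 2.61 as libraries were left out in turn. Fasted replicate 3 was the lowest fasted library for 4 of the 6 genes, Acot1, Acot3, Acot4 and Acot13. In that library Acot3 read 2.84 FPKM and Acot4 10.68 FPKM, while Acot2 read 13.78 FPKM, between the other fasted libraries.

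Mitochondrial members held most of the signal. Acot13 encodes a small thioesterase associated with mitochondria, also known as Them2, and had the highest level of the 6 genes in every library. It read 47.03, 38.51 and 45.71 FPKM in fed and 78.3, 62.46 and 60.26 FPKM in fasted libraries. The means were 43.8 ± 4.59 and 67.0 ± 9.84 FPKM, a ratio of 1.53 and a log2 fold change of 0.60 ± 0.15. Every fasted library was above every fed library, by at least 13.2 FPKM.

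Acot2, the type I thioesterase of the mitochondrial matrix, read 9.5, 7.81 and 9.15 FPKM in fed and 15.45, 12.21 and 13.78 FPKM in fasted libraries. The ratio of the means (8.82 ± 0.892 and 13.8 ± 1.62 FPKM) was 1.57, and the log2 fold change 0.59 ± 0.14. Acot2 followed Acot13 closely from library to library. The ratio of Acot2 to Acot13 was 0.202, 0.203 and 0.2 in fed and 0.197, 0.195 and 0.229 in fasted tissue, with fasted replicate 3 the highest. Of the 15 pairs of members, this pair had the most similar profiles, with a root mean square distance of 0.0728 between their centred log2(FPKM + 1) values over the 6 libraries. The genes lie on different chromosomes, 12 and 13.

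Acot9, a type II mitochondrial thioesterase of broad substrate range, went the other way. It read 35.92, 36.85 and 31.32 FPKM in fed and 23.84, 28.19 and 24.63 FPKM in fasted libraries, so the highest fasted value stayed below the lowest fed value. The means were 34.7 ± 2.96 and 25.6 ± 2.32 FPKM, a ratio of 0.736 and a log2 fold change of -0.43 ± 0.13. This change was close to the median of all tested genes (-0.34). With median-ratio scaling of the libraries the median of all genes moved to -0.15 and Acot9 to -0.23, and with quantile scaling to -0.21 and -0.30. Under neither scaling did Acot9 pass the limma threshold. The median and both scalings were taken from the rows held, which appear to be chosen on the same contrast. They therefore give no level of unchanged genes against which Acot9 could be judged.

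**Figure D2:**
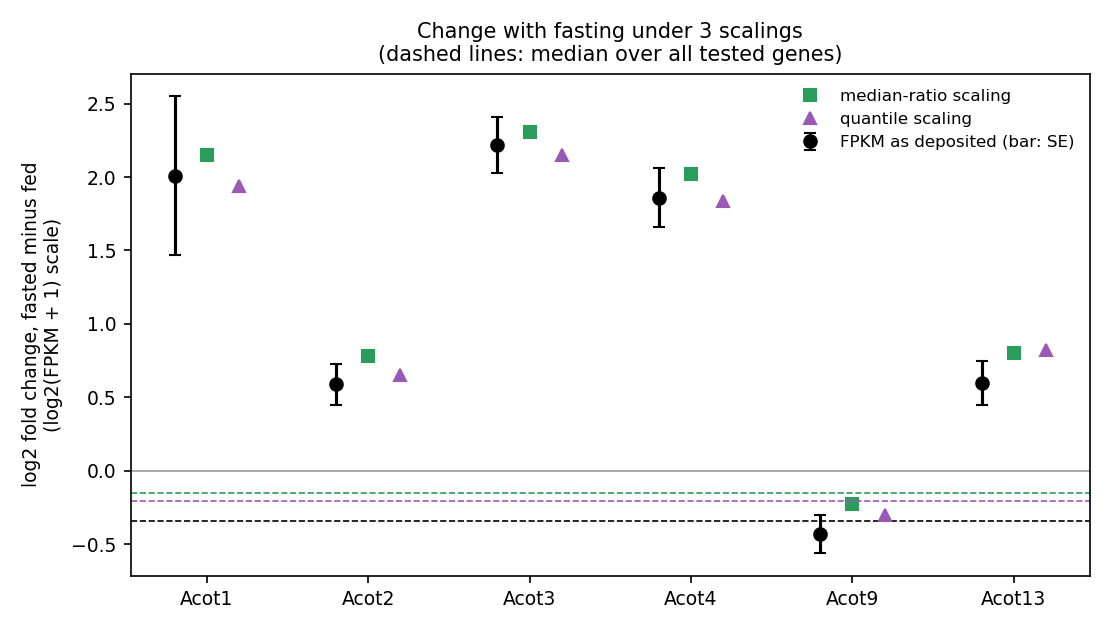
Log2 fold change, fasted minus fed, on the log2(FPKM + 1) scale (vertical axis) for each thioesterase gene, from FPKM as deposited (black, with SE), after median-ratio scaling (green) and after quantile scaling (purple). Dashed lines give the median over all tested genes under each scaling (-0.34, -0.15 and -0.21), beside which Acot9 lies, while the other 5 genes lie above 0 under all 3.

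The type II pair moved apart. Acot13 stood at 1.31, 1.05 and 1.46 times Acot9 in fed tissue and at 3.28, 2.22 and 2.45 times in fasted tissue. A single scaling factor per library leaves this ratio as it is, whereas quantile scaling can move it. Its lowest fasted value was above its highest fed value. That follows by arithmetic, since Acot13 was higher and Acot9 lower in every fasted library, so it adds no support of its own.

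**Figure D3:**
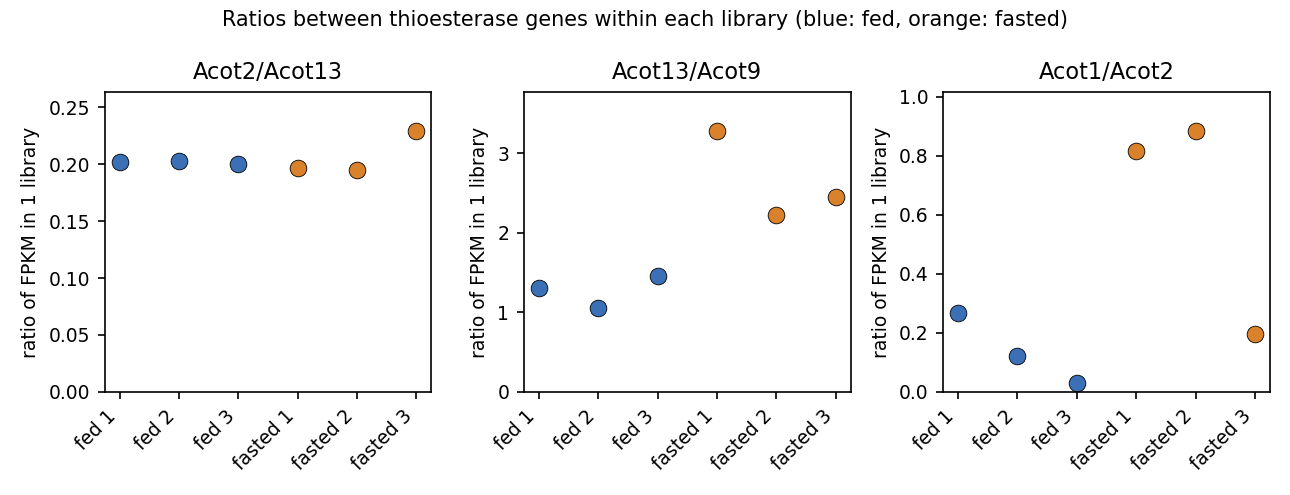
Ratio of FPKM between a pair of genes within 1 library (vertical axis, from 0) for the 3 fed (blue) and 3 fasted (orange) libraries. Acot2 to Acot13 stays between 0.195 and 0.229, Acot13 to Acot9 is higher in all fasted libraries, and Acot1 to Acot2 is high in fasted replicates 1 and 2 (0.815 and 0.883) but not in fasted replicate 3 (0.195).

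In fed tissue the order of levels was Acot13, Acot9, Acot2, Acot4, Acot1, Acot3, and it held in each of the 3 libraries. The ranges of neighbours overlapped only for Acot4 and Acot1, and Acot4 was the higher of these in all 3 libraries. Acot13 and Acot9 were the closest within a library, at 1.05 times in fed replicate 2. The order of the fasted means was the same, but the lower neighbours were no longer apart. Acot4 exceeded Acot1 in 2 of 3 fasted libraries, and Acot1 exceeded Acot3 in 2 of 3. Acot2 was 1.08 to 1.34 times Acot4 in fasted tissue, against 2.65 to 5.11 times in fed tissue.

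Summed by compartment, the mitochondrial genes Acot2, Acot9 and Acot13 gave 92.45, 83.17 and 86.18 FPKM in fed and 117.59, 102.86 and 98.67 FPKM in fasted libraries. The peroxisomal genes Acot3 and Acot4 gave 3.60, 1.99 and 1.79 FPKM in fed and 15.30, 16.07 and 13.52 FPKM in fasted libraries. The peroxisomal share of the summed thioesterase FPKM was 2.66% ± 0.867 (SD, n = 3) in fed and 11.6% ± 0.954 in fasted tissue. The cytosolic share, which is Acot1 alone, was 1.34% ± 1.14 and 6.44% ± 3.55. The mitochondrial share was 96% ± 2 and 82% ± 3.45, lower in each fasted library than in any fed one although the mitochondrial sum itself was higher. Within it, Acot9 went from 38.2% ± 3.97 to 19.9% ± 3.01 of the total, while Acot13 (48.1% ± 3.55 and 51.5% ± 2.96) and Acot2 (9.69% ± 0.651 and 10.7% ± 1.29) had shares that overlapped between the groups. These shares cover the 6 genes held and not the whole family. They are made from the member values given above, so they add no support of their own. They also rest on a single compartment per gene. The mitochondrial and cytosolic shares depend most on Acot13, the largest part of the sum, which was counted as mitochondrial.

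**Figure D4:**
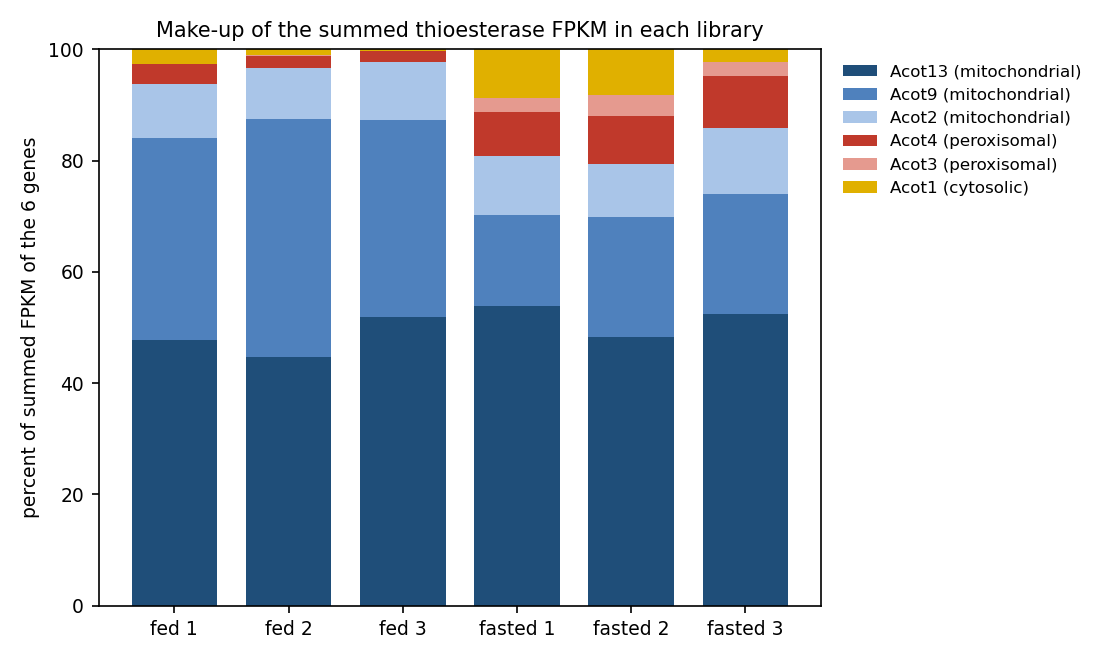
Percent of the summed FPKM of the 6 thioesterase genes (vertical axis) that each gene takes in each library (horizontal axis), with mitochondrial genes in blue, peroxisomal genes in red and the cytosolic gene in yellow. The blue part takes 93.8% to 97.6% in fed and 79.3% to 85.9% in fasted libraries.

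By position, 4 of the 6 genes lie side by side. Acot2 (chr12:83987861-83993873), Acot1 (chr12:84009490-84018371), Acot4 (chr12:84038379-84048601) and Acot3 (chr12:84052144-84060402) stand in this order on the plus strand of chromosome 12 (GRCm38) within 72.5 kb, with gaps of 15.6, 20.0 and 3.5 kb. Acot5 and Acot6 follow them, which makes a type I cluster of 123.5 kb. All 4 genes held were called higher, as were 41.1% of all tested genes. Their log2 fold changes ran from 0.59 for Acot2 at the outer edge to 1.86 to 2.22 for the other 3. The 4 together summed to 15.64, 10.76 and 11.23 FPKM in fed and to 43.34, 39.06 and 29.99 FPKM in fasted libraries. Within 250 kb on either side of the cluster 10 protein-coding genes are annotated, and the only one held was Riox1, a histone demethylase gene, at 2.35 ± 0.327 FPKM in fed and 4.16 ± 0.537 FPKM in fasted tissue (log2 fold change 0.62 ± 0.16). The type II members lie elsewhere, Acot13 on the minus strand of chromosome 13 (24817948 to 24831540) and Acot9 on the plus strand of the X chromosome (155262443 to 155297654).

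**Figure D5:**
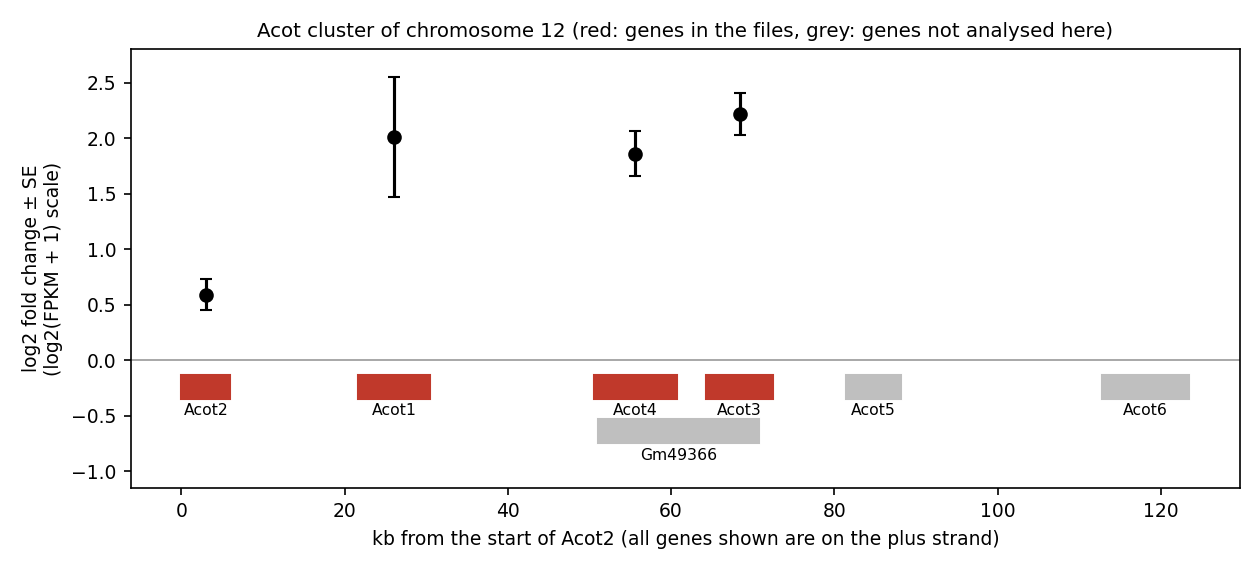
The thioesterase cluster of chromosome 12 drawn to scale in kb from the start of Acot2 (horizontal axis), with genes in the files in red and other protein-coding genes in grey. Points with SE bars give the log2 fold change of the 4 genes held (0.59, 2.01, 1.86 and 2.22 from left to right), and the grey bar under Acot4 and Acot3 is the gene model Gm49366 that spans them.

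Members of the cluster are copies of one another, which limits how well reads can be told apart. The coding sequences of Acot1 and Acot2 were 95.6% identical over 1236 aligned bases, and those of the other pairs among Acot1 to Acot4 were 75.3% to 84.5% identical. Of the 50-base stretches of the longest coding transcript, 33.6% in Acot1 and 27.7% in Acot2 also occur in a transcript of another gene, most often in each other. Acot9 is 97.2% identical to the intronless gene Acot10, and 20.2% of its 50-base stretches are shared, but 0.968% of its 100-base stretches. Acot13 shared none (0%). Acot3 and Acot4 are further overlapped on their exons by Gm49366 on the same strand and by the antisense transcript 4732463B04Rik, neither of which is held. Neither read length nor strand is given in the sources used here, so the values of Acot1 to Acot4 and of Acot9 are uncertain to that extent, and the part of shared reads in their changes was not tested. The ratio of Acot1 to Acot2 varied between libraries, at 0.267, 0.123 and 0.0317 in fed and 0.815, 0.883 and 0.195 in fasted tissue.

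The 4 cluster genes rose together. The 250 bases before 1 start site of each are shown as a reference for their promoters (RefSeq, GRCm38.p6, plus strand, 5′ to 3′). Capitals mark CCAAT on either strand, and in Acot4 also a match to DR1, the direct repeat of AGGTCA with 1 base (N) between the copies that PPAR binds together with RXR.
Acot2, chr12:83987611-83987860: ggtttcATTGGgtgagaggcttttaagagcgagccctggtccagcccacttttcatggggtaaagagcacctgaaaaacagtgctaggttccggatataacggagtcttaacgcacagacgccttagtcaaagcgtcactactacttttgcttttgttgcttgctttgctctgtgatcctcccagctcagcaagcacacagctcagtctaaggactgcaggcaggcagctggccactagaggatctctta
Acot1, chr12:84009252-84009501: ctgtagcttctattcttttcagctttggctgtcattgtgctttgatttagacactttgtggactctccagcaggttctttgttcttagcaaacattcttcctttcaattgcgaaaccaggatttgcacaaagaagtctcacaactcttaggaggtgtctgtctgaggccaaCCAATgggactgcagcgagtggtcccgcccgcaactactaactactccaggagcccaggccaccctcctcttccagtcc
Acot4, chr12:84038129-84038378: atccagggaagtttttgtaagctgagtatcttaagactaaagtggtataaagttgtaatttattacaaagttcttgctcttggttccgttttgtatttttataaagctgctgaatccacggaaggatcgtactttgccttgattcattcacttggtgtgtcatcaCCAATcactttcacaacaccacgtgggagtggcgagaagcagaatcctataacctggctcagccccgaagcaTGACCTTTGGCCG
Acot3, chr12:84051894-84052143: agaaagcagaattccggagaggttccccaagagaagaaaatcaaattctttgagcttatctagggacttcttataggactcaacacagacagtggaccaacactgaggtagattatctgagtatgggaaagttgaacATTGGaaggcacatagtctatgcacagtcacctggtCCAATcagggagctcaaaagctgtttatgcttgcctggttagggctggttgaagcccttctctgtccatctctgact

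Motifs were searched on both strands in windows of 300 bases, from 250 before to 50 after the start. This was done for the 5 members with such a window (Acot13 had none). Acot3 had 2 windows, of which only the first along the chromosome was searched. With up to 2 mismatches, the direct repeat DR1 was found in Acot4 alone, as cggccaaaggtca read from the minus strand and ending next to the start site, and in 3.86% of all 32851 promoter windows. Its hexamer AGGTCA was found in Acot4, inside that match, and in Acot3, 18 to 23 bases after the start, and in 16.3% of all windows. CCAAT was in all 5 windows, Acot9 included, and in 37.4% of all. CACGTG was in Acot4 alone (7.15% of all windows), TATAAA in Acot4 and Acot9 (13.6%), GGGCGG in Acot1 and Acot9 (35.7%), and GTAAACA in none of the 5 (3.65%). These are matches of letters in a short window, and binding was not measured.

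For each member the 3 genes with the most similar profile were found by the root mean square distance between centred log2(FPKM + 1) values over the 6 libraries. The measure takes in the difference between the groups that chose the rows, so it is given as a description. For Acot1 they were Tuba8, an alpha-tubulin gene (distance 0.347), Cnn1, the smooth muscle calponin gene (0.368), and Mdk, the growth factor midkine (0.412). Each of these 3 was lowest among fasted libraries in replicate 3, with 1.24 FPKM against 6.54 and 8.84 for Tuba8. Acot1 was lowest in that library too, so the measure itself favours genes with such a low value. Acot3 was nearest to Cldn11 (0.155), Ddit4, an inhibitor of mTORC1 signalling (0.164), and Mapkbp1 (0.174). Acot4 was nearest to Rab20 (0.163), Mapkbp1 (0.188) and Usp3 (0.188). Cldn11, a tight junction gene, was like Acot3 in being near 0 in fed replicates 2 and 3 (0.03 FPKM each). Acot2 was nearest to Usp49 (0.0242) and Acot9 to the mitochondrial ribosomal protein gene Mrpl55 (0.0434).

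Other genes that make, carry or use acyl-CoA were taken from fixed lists, of which the files held only a part. Each count of these lists is to be read against the share over all tested genes, 41.1% called higher and 49.4% called lower. Of 16 other thioesterase genes listed, 3 were held and all 3 fell, where 49.4% of all tested genes fell. Fasn, whose thioesterase domain releases newly made palmitate, went from 437 ± 337 to 36.6 ± 7.33 FPKM (log2 fold change -3.25 ± 0.52). Lypla1, a protein depalmitoylase, fell by 0.59 on the log2 scale, and Ppt2, the lysosomal thioesterase, by 0.38, a call lost under both scalings and when fed replicate 2, fed replicate 3, fasted replicate 1 or fasted replicate 2 was left out. Among 22 acyl-CoA synthetases, which run the reverse reaction, 5 were held, and 3 rose and 2 fell. The transporter and synthetase gene Slc27a1 went from 219.6 ± 90.2 to 940.4 ± 130.1 FPKM (2.19 ± 0.32), and the medium-chain synthetase gene Acsm3 from 12.1 ± 10.2 to 53.5 ± 9.24 FPKM (2.33 ± 0.48). Acss2, the cytosolic acetyl-CoA synthetase, fell (-1.72 ± 0.45), as did Slc27a4 (-0.64 ± 0.15).

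In the list of coenzyme A synthesis and turnover, 3 of 19 genes were held, with 1 higher, 1 lower and 1 not called. Among all tested genes, 41.1% were called higher and 49.4% lower. Pank3, a pantothenate kinase that starts coenzyme A synthesis, fell from 62.8 ± 6.68 to 19.9 ± 7.70 FPKM (-1.66 ± 0.24). Slc25a42, the carrier of coenzyme A into mitochondria, rose (0.93 ± 0.28), a call lost without fed replicate 2 or fasted replicate 1. Of 11 genes for acyl-CoA and fatty acid binding, 4 were held, with 1 higher, 2 lower and 1 not called. Dbi, the acyl-CoA-binding protein, fell from 3089 ± 317 to 1372 ± 20.2 FPKM (-1.17 ± 0.14). Acbd6 rose (0.52 ± 0.10). Acbd3 fell (-0.30 ± 0.12), a call lost under both scalings and without any 1 of the 6 libraries, and Acbd4 was not called (-0.34 ± 0.16).

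The oxidation lists below are likewise set against 41.1% of all tested genes called higher and 49.4% lower. Of 16 genes of peroxisomal fatty acid oxidation, 5 were held, and 3 rose and 2 fell. Ehhadh, the bifunctional enzyme of that pathway, went from 31.6 ± 7.04 to 75.4 ± 26.2 FPKM (1.20 ± 0.26), and Acaa1b, a thiolase gene, from 33.6 ± 7.70 to 77.5 ± 28.6 FPKM (1.13 ± 0.30). Abcd2, the transporter of very long acyl-CoA into peroxisomes, fell (-1.10 ± 0.26), and so did Acaa1a (-0.33 ± 0.11). The list had 1 fall with median-ratio or quantile scaling, and also when fed replicate 2, fed replicate 3, fasted replicate 1 or fasted replicate 2 was left out, since Acaa1a was then not called. Of 18 genes of mitochondrial beta-oxidation, 7 were held, and 2 rose and 5 fell. Acad11 (0.99 ± 0.20) and Acadl (0.47 ± 0.10), both acyl-CoA dehydrogenases, rose, and Acad9, a complex I assembly factor of the same family, fell (-0.72 ± 0.14). The falls of this list numbered 2 with median-ratio scaling and 1 with quantile scaling. In the carnitine shuttle, 4 of 8 genes were held, with 2 higher, 1 lower and 1 not called. Slc25a20 (0.83 ± 0.13) and the carnitine transporter gene Slc22a5 (0.93 ± 0.15) rose, and Crot, the peroxisomal octanoyltransferase, fell (-0.55 ± 0.15), a call lost with median-ratio scaling. Cpt1a, the outer carnitine palmitoyltransferase, was not called (-0.20 ± 0.13), and its groups overlapped.

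Among 14 genes of PPAR and its partners, 6 were held, with 3 higher and 3 lower. Ppara itself was low, at 1.28 ± 0.210 FPKM in fed and 2.69 ± 0.0814 FPKM in fasted tissue (0.70 ± 0.15). The coactivator gene Ppargc1a rose from a low level, 0.767 ± 0.354 FPKM in fed to 2.33 ± 0.834 FPKM in fasted tissue (0.90 ± 0.24). Rxrg, a receptor that pairs with PPAR, fell (-1.28 ± 0.23). Falls numbered 1 with median-ratio scaling, and likewise when fed replicate 1 or fasted replicate 1 was left out. Rises numbered 2 when fasted replicate 1 or fasted replicate 3 was left out. The coactivator gene Ppargc1b (means of 0.613 FPKM in fed and 1.56 FPKM in fasted tissue) was then under the mean filter and not tested. Of 19 listed PPAR targets outside the Acot family, 8 were held and 7 tested, and 5 rose and 2 fell. Of all tested genes, 41.1% rose and 49.4% fell. Pdk4, the kinase that restrains pyruvate oxidation, rose (0.96 ± 0.23), as did Ehhadh, Ucp2, Slc25a20 and Acadl. The 2 falls, Angptl4 and Acadm, were both lost with median-ratio scaling and when fed replicate 3 or fasted replicate 2 was left out. Angptl4 alone was also lost without fed replicate 1, fed replicate 2 or fasted replicate 3, and Acadm alone with quantile scaling. When the adjustment took in the whole annotation, the list of PPAR and its partners had 0 calls and the targets kept 1 rise. The lists of peroxisomal and mitochondrial oxidation then had 0 calls as well, while the carnitine shuttle kept its 2 rises. Across these lists the genes were present because they differed between the same libraries, so the counts say nothing of the members that are not held.

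Cell type markers moved between the groups as well. Of 16 adipocyte markers listed, 7 were held and all 7 were lower in fasted tissue (5 under either scaling), where 49.4% of all tested genes were lower and 41.1% higher. They had a summed level of 6403 to 7655 FPKM in fed and 3632 to 4285 FPKM in fasted libraries. Of 11 endothelial markers 4 were held, all higher (176.2 to 216.7 and 283.3 to 414.3 FPKM), and of 11 progenitor and fibroblast markers 4 were held, 2 higher and 2 lower (798 to 1069 and 1239 to 1851 FPKM). In that sum Dcn went from 505 ± 118 to 1061 ± 302 FPKM and Col3a1 from 214 ± 6.22 to 84.0 ± 7.13 FPKM. The other fall, Col1a1, was not called under either scaling, without the variance trend, or when any library but fed replicate 1 was left out. Adjusted over all annotated genes, 4 adipocyte markers were still called lower. Endothelial markers then had 0 calls, and progenitor and fibroblast markers 0 rises and 1 fall. Of 13 macrophage markers only Itgam was held, at 4.55 to 8.38 FPKM in fed and 2.12 to 3.86 FPKM in fasted libraries. Skeletal muscle was represented by Myl1, 1 of 8 markers, at 54.1 to 68.3 FPKM in fed and 11.4 to 24.4 FPKM in fasted libraries, and lymphocytes by Cd3e, 1 of 11, at 0.15 to 0.23 and 0.89 to 0.98 FPKM. Of 8 brown and beige adipocyte markers, Dio2 and Ppargc1a were held, and none (0) of 9 mesothelial markers was. The single epididymal marker held, Adam7, was at most 2.05 FPKM in fed and 0.03 FPKM in fasted libraries. The sums of all genes held ran from 190382 to 209201 FPKM in fed and from 180059 to 188061 FPKM in fasted libraries. In bulk tissue, fewer cells of a type and less RNA per cell cannot be told apart, and the part of cell composition in the thioesterase changes was not tested.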

How the data were processed

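RNA of 3 fed and 3 fasted samples of epididymal fat was sequenced in bulk. The deposited values are FPKM, per the file headers, and hold at most 2 decimals. RSEM and the builds mm10 and GRCm38.p6 are named, per the submitters' processing notes. Neither the aligner, the versions, the read length nor the rule that chose the 3162 rows is given in the sources used here. Depth is unknown, so no counting interval is given. Libraries were grouped by the treatment label. Replicate numbers follow accession order and pair no samples. The design text calls the replicates biological.

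Identifiers were matched to GENCODE M21 (3158 matched, 4 did not). Log2(FPKM + 1) was fitted with limma 3.58.1 in R 4.3.3 (lmFit, eBayes with trend) for the 2999 genes that averaged 1 FPKM or more over the libraries (163 did not), and p-values were adjusted by the Benjamini-Hochberg method (threshold 0.05). The fit was tested on simulated data. Promoter windows came from RefSeq, and coding identity from global alignments in Biopython 1.88. Named genes were every Acot gene, up to 2 rises and 2 falls per list, and the 3 nearest profiles per gene, of which those of Acot13 are not reported here. Ppt2, Ucp2, Ppargc1b, Riox1, Cpt1a, Acbd4 and the marker genes fall outside that rule and were named after their values were seen. Members, lists and motifs were chosen with earlier results of these data known. Alternatives were another pseudocount, no filter, 2 scalings estimated from the rows held, no variance trend, 2 stricter adjustments and leaving out each library.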

Additional observations from a re-analysis of the deposited data

How the results depend on the processing

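Over 13 alternatives each, all 6 thioesterase genes kept their direction. Only the 2 scalings could have reversed a direction. Fed and fasted values of each gene did not overlap, so another pseudocount or leaving out a library keeps the direction. The filter, the variance trend and the adjustments leave the fold change as it is. All 5 rises were called in 11 of the 13 alternatives. Only 2 (Acot3 and Acot4) were called when p-values were adjusted over every protein-coding gene, and likewise over every annotated gene. The 1 fall (Acot9) became 0 calls with median-ratio scaling, quantile scaling and both adjustments (limma; at an unadjusted p under 0.05 the falls numbered 0, 1, 1 and 1). Its values under the scalings were -0.23 and -0.30, where the cause was not tested. Leaving out any 1 library changed no call of a member. Over all tested genes, 1232 rises became 557 when adjusted over protein-coding and 172 over all annotated genes. The 1482 falls became 495 and 192 there, and 787 with median-ratio scaling. Larger p-values for untested genes make those adjustments stricter by construction. The fed mitochondrial sum was 87.3 FPKM as deposited and 81.9 with median-ratio scaling, because that scaling divides the fed libraries by 1.033, 1.142 and 1.035. No paired analysis was possible because the labels give no replicate numbers that the groups share. FPKM with 2 decimals limits Acot3 in fed tissue, and 3 libraries per group limit Acot1.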
